A study of Drosophila melanogaster with 12 samples.

Results

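All 12 RNA libraries of the series were used here, as the 9 libraries of 3 oncogene genotypes against the 3 libraries of 1 control genotype. The question was which genes lay on the same side of control whichever oncogene was expressed. The tissue was the accessory gland of adult Drosophila melanogaster males, and each library pooled 80 to 100 glands dissected at day 10 from flies reared at 25°C after a heat shock of 37°C for 20 min. All 4 genotypes carried y, w and hs-flp12, UAS-P35 (a baculoviral inhibitor of apoptosis), Act>CD2>gal4 and UAS-GFP(nls). The control carried nothing further. Yki*+Dp added UAS-Yki with altered residues that its label numbers, a constitutively active Yorkie, together with UAS-Dp and, by its label, UAS E2F1. Myc+E2f/Dp added UAS-dMyc, UAS E2F1 and UAS-Dp, and Yki-WT added UAS-yki. In each oncogene genotype the label names a UAS transgene opposite the Act>CD2>gal4 chromosome, and in control it names none. The flipout system expresses the transgenes from an actin promoter in part of the cells only, and not only in the gland. There is 1 control genotype, and its 3 libraries serve every comparison. A response shared by the oncogenes and a feature of the control background therefore cannot be told apart. The 9 oncogene libraries are also 3 genotypes with 3 libraries each, not replicates of one condition.

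The accessory gland is a secretory epithelium of main cells and secondary cells that makes the proteins of seminal fluid, and its adult cells are polyploid and no longer divide. Yorkie is the transcriptional coactivator restrained by the Hippo pathway, Myc drives cell growth, and E2f1 with its partner Dp drives the genes of DNA replication. In Drosophila epithelia, disturbed growth is known to engage the JNK cascade, its secreted outputs such as matrix metalloproteinases and Unpaired cytokines, and stress and immune genes.

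The deposited unit is TPM, a share of all transcripts that corrects for transcript length and adds up to the same total in every library, so sequencing depth cannot be read from it. Values are given as scaled TPM, the deposited TPM times a factor for its library from the median of ratios. The control factors were 1.13 to 1.36, those of Yki-WT 1.16 to 1.26, those of Yki*+Dp 0.928 to 0.989 and those of Myc+E2f/Dp 0.645 to 0.776. Differences are differences of log2(scaled TPM + 1), which understate the change of low genes. Of 14323 genes, 8128 reached 1 TPM in at least 3 libraries and were tested. Correlations between libraries of one genotype ran from 0.986 to 0.9946 across genes. The labels number 3 libraries in each genotype but do not say that they came from separate cultures of flies, so the p-values measure the spread between these libraries. Markers of main cells were abundant throughout, with a summed level of 84825 to 108174 scaled TPM in control and 43403 to 97265 in the oncogene libraries, and 8 of 9 germline and 7 of 8 fat body markers stayed under 1 TPM in every library. Of 23 testis markers measured, 17 were tested. They summed to 19.9 to 159 in control, 16.1 to 51.2 in Yki*+Dp, 21.4 to 46.5 in Myc+E2f/Dp and 44.5 to 169 in Yki-WT. Muscle markers, from the sheath of the gland, summed to 735 to 854 in control and 807 to 957 in Yki-WT. Their sums lay above control in Yki*+Dp, at 932 to 1014, and below it in Myc+E2f/Dp, at 349 to 453.

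The transgenes were checked first, and yki went against a label. Its level was 19.3, 18.7 and 18.6 scaled TPM in control, 344, 400 and 376 in Yki*+Dp, and 97.7, 81.6 and 195 in Yki-WT. In Myc+E2f/Dp, whose label lists no yki transgene, it was 94.4, 124 and 36. All 9 oncogene libraries thus lay above the controls, with log2 differences of 4.23 in Yki*+Dp, 2.56 in Yki-WT and 1.94 in Myc+E2f/Dp (limma, Benjamini-Hochberg adjusted p = 1.52e-05, 0.00269 and 0.00141). One transcript, FBtr0309372, carried most of the rise in 8 of the 9 oncogene libraries. It was at 3.52, 2.55 and 3.69 scaled TPM in control and at 64.8, 93.6 and 11.1 in Myc+E2f/Dp, against 59.7 to 369 in the genotypes with a yki transgene. FBtr0452181 and FBtr0290258, which hold equal values, were at 7.26 to 7.86 each in control and 10.8 to 15.3 in the oncogene libraries. The source of yki RNA in the libraries labelled Myc+E2f/Dp was not tested, and the main counts are given with and without them. E2f1 was at 777, 724 and 513 in the libraries labelled Myc+E2f/Dp but at 18.3, 17.1 and 21.8 in Yki*+Dp and 22.6, 24 and 20.9 in control. Its transcript FBtr0334678 was listed at 0 in all control, Yki*+Dp and Yki-WT libraries. Dp followed the labels, at 1780 to 2365 in Yki*+Dp, 480 to 935 in Myc+E2f/Dp and 25.9 to 29.7 in the other 6 libraries. Myc was at 121, 80.8 and 150 in Myc+E2f/Dp and at 18.4 to 26.2 elsewhere.

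**Figure D1:**
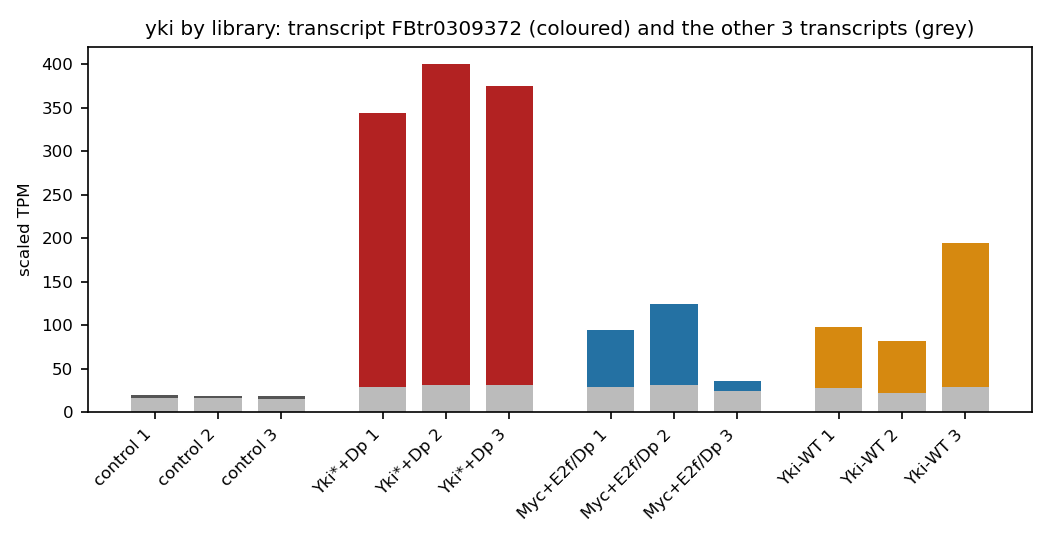
Level of yki in each library in scaled TPM, as stacked bars of transcript FBtr0309372 (coloured by genotype) and the other transcripts (grey). The control bars reach 18.6 to 19.3, and the 3 libraries labelled Myc+E2f/Dp reach 36 to 124, most of it from the coloured transcript except in replicate 3, where it makes up 11.1.

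Of the genes tested, 680 (8.37%) had all 9 oncogene libraries above all 3 controls, and 556 (6.84%) had all 9 below. Over the whole table these were 832 (5.81%) and 625 (4.36%) genes. Most of the one-sided differences were small, with a median of 0.72 on the log2 scale among the 680 and -0.47 among the 556. In the mean of the 3 genotypes, 280 genes (3.44%) were called higher and 80 (0.984%) lower, at an adjusted p below 0.05 and a log2 difference of at least 1, out of 3832 past the adjusted p alone. Genes that passed both rules are called shared here. There were 194 shared higher genes (2.39%) and 48 shared lower genes (0.591%), while 86 and 32 called genes had a library that overlapped the controls. Without the libraries labelled Myc+E2f/Dp, 241 genes were shared higher and 23 shared lower, and 183 of the 242 shared genes kept both marks. With TPM as deposited, 398 genes were shared higher and 15 lower, and the higher share of the called genes was 94.9% in place of 77.8%. The median gene of the mean contrast then stood 0.38 above control on the log2 scale, against 0.04 after scaling, so the balance of rises and falls is relative to the scaling. When the 9 libraries were fitted as 1 group, so that differences between genotypes entered the error, 95 genes were called higher and 22 lower, and 114 of the 242 shared genes were still called.

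The margin, the gap on the log2 scale between the nearest oncogene and control libraries, had a median of 0.38 in the shared higher genes and 0.41 in the shared lower genes, and reached 1 in 10 and 6 of them. At the edge of the higher group, Claspin, a checkpoint protein of DNA replication, just met the rule. Its levels were 0.00916, 0.0105 and 0.00346 scaled TPM in control and 0.0117 to 0.0786 in the Yki genotypes, and its difference came from Myc+E2f/Dp at 5.92, 7.11 and 6.98 (adjusted p = 0.439 with the 9 libraries as 1 group). CG1607 just missed it, with 0.0943 in its highest control and 0.0841 in its lowest oncogene library. On the lower side CG2812 was inside, with its lowest control at 36.1 and its highest oncogene library at 35.3. CG34166 was outside, at 7.07 and 7.09.

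The genotypes differed in how far the shared genes stood from control. The median log2 difference of the shared higher genes was 1.88 in Yki*+Dp, 1.26 in Myc+E2f/Dp and 0.96 in Yki-WT. Yki*+Dp had the widest difference at 128 of the 194 genes, Myc+E2f/Dp at 45 and Yki-WT at 21. The shared lower genes had another order, with medians of -1.94 in Myc+E2f/Dp, -1.22 in Yki*+Dp and -0.70 in Yki-WT, and Myc+E2f/Dp had the widest difference at 39 of 48. Against control, Yki*+Dp on its own had 5.52% of the genes tested called higher and 1.46% lower, Myc+E2f/Dp 7.15% and 5.94%, and Yki-WT 1.88% and 0.246%. All 3 genotypes were called on their own at 49 shared higher and 11 shared lower genes, in 3 comparisons that use the same controls. Contrasts between the oncogene genotypes use no control library, but the shared genes were chosen by a mean over the same oncogene libraries. A large value in a single genotype can meet that rule, which by itself raises the shares that follow above those of all genes. Among the shared higher genes, 45.9% differed between Yki*+Dp and Myc+E2f/Dp (10.5% of all genes tested), 42.8% between Yki*+Dp and Yki-WT (4.02%) and 27.8% between Myc+E2f/Dp and Yki-WT (12.2%). For the shared lower genes the shares were 29.2%, 14.6% and 64.6%. No pair of oncogene genotypes differed at 60 shared higher and 15 shared lower genes, which does not show that those genotypes were equal.

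**Figure D2:**
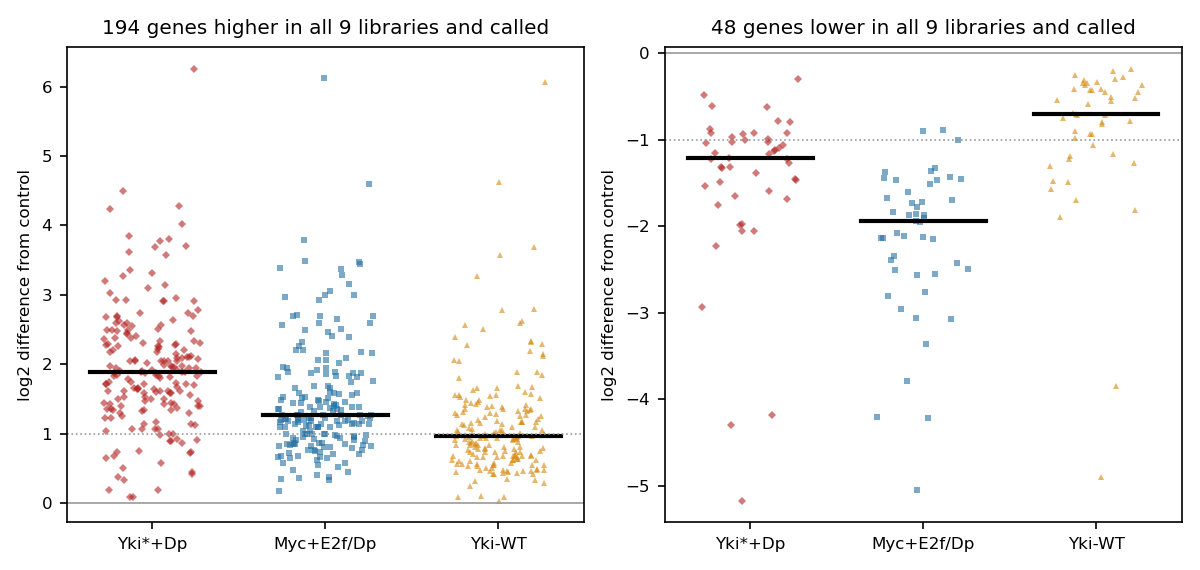
Log2 difference from control of the 194 shared higher genes (left) and the 48 shared lower genes (right) in each oncogene genotype. Each point is a gene, the black bar is the median, the dotted line marks a difference of 1, and the medians run from 0.96 in Yki-WT to 1.88 in Yki*+Dp on the left and from -0.70 in Yki-WT to -1.94 in Myc+E2f/Dp on the right.

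Shared higher genes were low in control, with a median of 1.78 scaled TPM against 7.6 over all genes tested. Of the 194, 65 were under 1 TPM in every control and so entered the test only through oncogene libraries, where they had to be higher. Shared lower genes were abundant in control, with a median of 42. Symbols of the CG or CR kind, given to genes named only by number, made up 79.2% of the shared lower genes, 39.7% of the shared higher genes and 36.6% of all genes tested. Within Myc+E2f/Dp, replicate 3 held the highest level of its 3 libraries at 160 of the 194 shared higher genes and the lowest at 37 of the 48 shared lower genes. That library had the lowest yki level of its group and the smallest factor, 0.645. Without it, 214 of the 242 shared genes were still shared. Without control replicate 3, the number of tested genes with all oncogene libraries below the controls was 835 in place of 556.

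Obp56g had the largest shared rise. It encodes an odorant-binding protein that in Drosophila is made in the male ejaculatory bulb and is part of the mating plug. Its level was 73.8, 113 and 28.2 scaled TPM in control, 1226, 1351 and 1099 in Yki*+Dp, 685, 547 and 1755 in Myc+E2f/Dp, and 2218, 2331 and 732 in Yki-WT. Every oncogene library was several times above the highest control, and the genotypes overlapped one another. The log2 difference in the mean was 4.23 (SE 0.47, adjusted p = 5.43e-05), with 4.28, 3.79 and 4.63 in Yki*+Dp, Myc+E2f/Dp and Yki-WT. Markers of the ejaculatory duct and bulb summed to 446 to 845 scaled TPM in control, 183 to 547 in Yki*+Dp, 131 to 432 in Myc+E2f/Dp and 788 to 1315 in Yki-WT, and 1 of the 4 tested, Est-6, was called lower. These sums leave out Ebp and EbpII, genes named for the ejaculatory bulb, which stood above control in the mean but were not called. The part of attached duct or bulb in the rise of Obp56g was not tested. Of 16 odorant-binding protein genes tested, Obp56g was the 1 called, and 3.44% of all genes tested were called higher.

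Idgf4, which encodes a secreted chitinase-like growth factor, was at 9.37, 20.1 and 7.5 scaled TPM in control and 120, 194 and 169 in Yki*+Dp. It reached 30.4, 24.3 and 103 in Myc+E2f/Dp and 61.1, 57 and 120 in Yki-WT. Yki*+Dp stood above Myc+E2f/Dp, and Myc+E2f/Dp and Yki-WT overlapped. The log2 difference in the mean was 2.71 (SE 0.42, adjusted p = 0.000427). Myo31DF, a class I myosin known for setting left-right asymmetry of fly organs, was at 1.99, 2.26 and 1.33 in control and 29.7, 40.5 and 31.9 in Yki*+Dp. In Myc+E2f/Dp its levels were 6.8, 8.11 and 16.1, and in Yki-WT 6.13, 7.64 and 11.4, so that Yki*+Dp stood above the other genotypes. Its log2 difference was 2.41 (SE 0.23, adjusted p = 2.18e-05). CG4269 had nearly the same difference in each genotype, 2.09, 2.39 and 2.50, from 18.1, 31.4 and 16.3 in control to between 71.5 and 243 in the oncogene libraries.

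Several of the largest rises were uneven across the genotypes. The C-type lectin gene lectin-28C was at 1.53, 1.84 and 1.33 scaled TPM in control and 154, 258 and 187 in Yki*+Dp, but at 2.41 to 5.63 in Myc+E2f/Dp and 4.54 to 8.85 in Yki-WT. CG43403 was highest in Yki-WT, at 255, 232 and 188, against 7.93 to 58.9 in the other oncogene genotypes and 2.24, 1.71 and 3.3 in control. CG3906 was at 59.5, 71.4 and 89.7 in Myc+E2f/Dp and at most at 0.75 in any other library, and its controls were at 0.0249 to 0.0777. The log2 differences of lectin-28C (6.26, 0.82 and 1.49 in Yki*+Dp, Myc+E2f/Dp and Yki-WT), CG43403 (2.27, 3.37 and 6.06) and CG3906 (0.33, 6.12 and 0.46) were among the 5 widest ranges of all shared genes. Sfp79B was the 1 seminal fluid protein gene called higher, of 41 Acp and Sfp genes tested. It rose from 90.7, 39.8 and 43.5 in control to 966, 826 and 886 in Yki*+Dp, 217, 112 and 117 in Myc+E2f/Dp, and 291, 112 and 658 in Yki-WT. Its log2 difference was 2.58 (SE 0.44, adjusted p = 0.000754). The other 4 genes among the 12 largest rises were CG34301, CG6891, CG13117 and l(2)34Fc, with log2 differences of 2.90, 2.69, 2.64 and 2.38. When the 9 libraries were fitted as 1 group, lectin-28C, CG13117, Sfp79B and CG3906 had adjusted p = 0.231, 0.0998, 0.0752 and 0.381 and were no longer called.

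**Figure D3:**
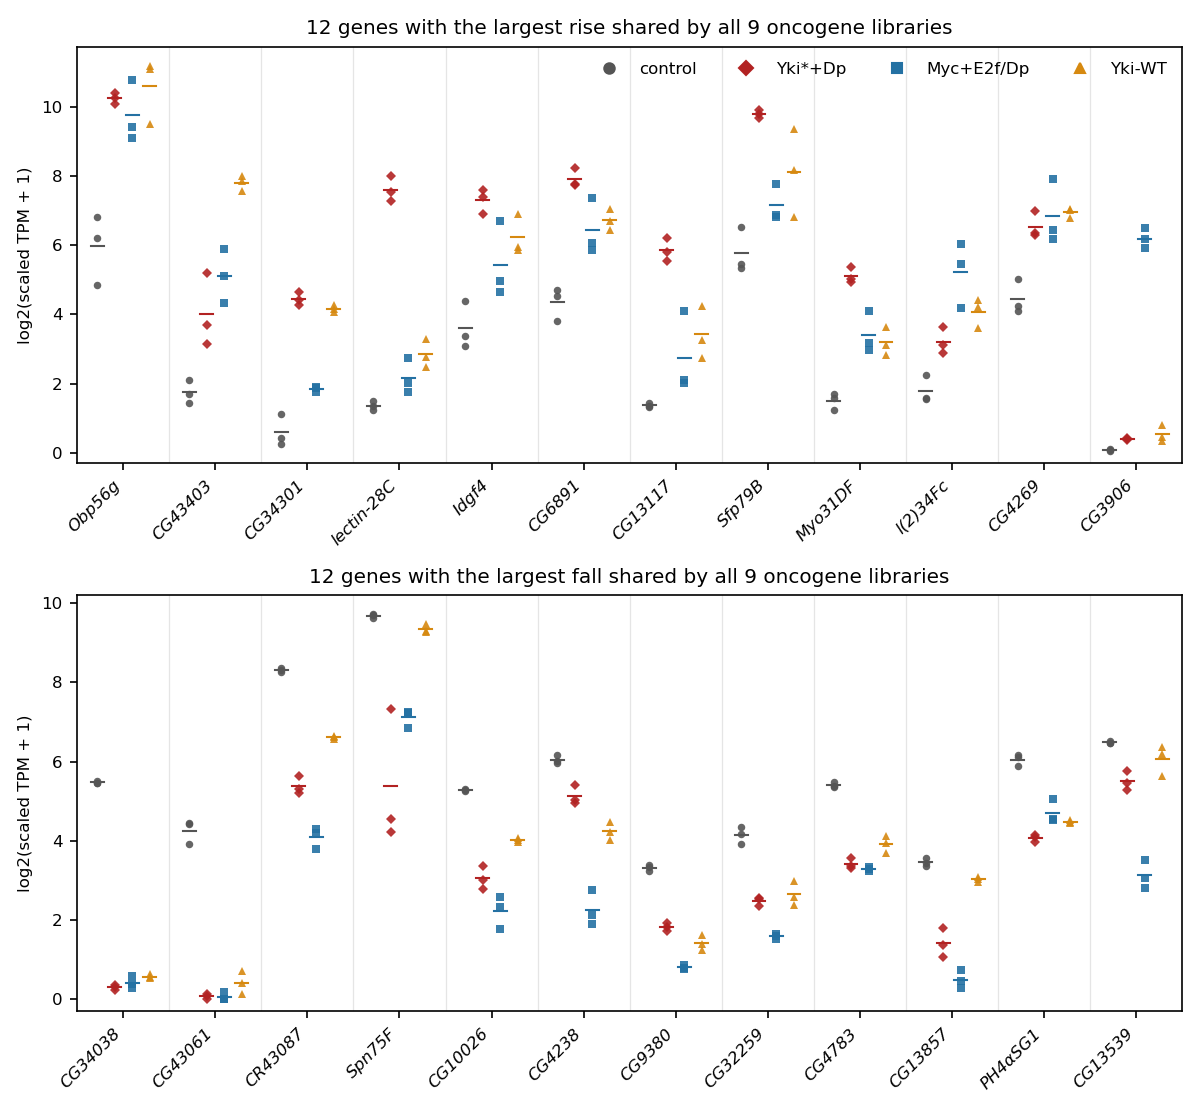
Level of the 12 genes with the largest shared rise (top) and the 12 with the largest shared fall (bottom), as log2(scaled TPM + 1). Each point is a library, the short bars are group means, and the genotypes stand side by side for each gene; the control points lie under every oncogene point in the top panel and above every one in the bottom panel.

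The largest fall was close to complete in every oncogene library. CG34038, on chromosome 2R from 25167659 to 25169855 of BDGP6, was at 44.3, 42.9 and 42.9 scaled TPM in control. It was at 0.251, 0.168 and 0.282 in Yki*+Dp, 0.299, 0.229 and 0.512 in Myc+E2f/Dp, and 0.548, 0.443 and 0.483 in Yki-WT. The control mean was 121 times that of the oncogene genotypes, with a log2 difference of -5.04 (SE 0.07, adjusted p = 2.06e-12), and the genotypes lay within 0.27 of one another. CG43061, on chromosome 3R from 8049673 to 8050059, was at 14, 21 and 20.3 in control and between 0 and 0.652 in the oncogene libraries, 3 of which were listed at 0. Its log2 differences were -4.18, -4.20 and -3.84 in Yki*+Dp, Myc+E2f/Dp and Yki-WT. CG9380 lies 13773 bases from CG34038, with 3 tested genes between them (Ebp, EbpII and Sfp60F). It was at 9.06, 9.41 and 8.45 in control and 0.702 to 2.82 in the oncogene libraries, a log2 difference of -1.96 (SE 0.08, adjusted p = 6.2e-08). Ebp, EbpII and Sfp60F, chosen after their values were seen, were not called, at log2 differences of 0.32, 0.58 and 0.62. Ebp and EbpII are named for the ejaculatory bulb.

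Other falls were graded by genotype. The pseudogene CR43087 was at 325, 307 and 318 scaled TPM in control, 94, 96.9 and 99.3 in Yki-WT, and 38.3, 36.1 and 48.6 in Yki*+Dp. It was lowest in Myc+E2f/Dp, at 17.5, 18.8 and 12.8. The libraries of each genotype formed a step that did not overlap the next, and the log2 difference in the mean was -2.95 (SE 0.11, adjusted p = 2.92e-08). Spn75F, a serpin, was at 836, 832 and 781 in control, 704, 631 and 617 in Yki-WT, 148, 152 and 115 in Myc+E2f/Dp and 22.6, 17.8 and 160 in Yki*+Dp. Its difference in Yki-WT, -0.33 with adjusted p = 0.774, was within the error, although its 3 libraries lay below control. PH4αSG1, which encodes a prolyl hydroxylase of the secretory pathway, was at 70.6, 67.7 and 57.7 in control and 14.6 to 32.4 in all oncogene libraries (log2 difference -1.62, SE 0.11, adjusted p = 2.05e-06). Yki*+Dp was lower than Myc+E2f/Dp by -0.64 (adjusted p = 0.00158), under the fold threshold. The remaining large falls were CG10026, CG4238, CG32259, CG4783, CG13857 and CG13539, between -2.18 and -1.59. CG13857 and CG13539 were at -0.43 each in Yki-WT and were not called there. When the 9 libraries were fitted as 1 group, Spn75F, CG4238, CG13857 and CG13539 had adjusted p = 0.185, 0.0975, 0.109 and 0.21.

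CG9029, CG44388 and Fkbp14 are shared falls of genes abundant in control, chosen after their values were seen. CG9029 was at 24234, 21519 and 24612 scaled TPM in control, 13904, 14366 and 12069 in Yki*+Dp, 7279, 7395 and 5920 in Myc+E2f/Dp, and 19849, 16163 and 15552 in Yki-WT. CG44388 was at 8204, 5516 and 8039 in control and between 2403 and 5065 in the oncogene libraries. Fkbp14, a peptidyl-prolyl isomerase of the endoplasmic reticulum, was at 539, 488 and 477 in control, 194 to 248 in Yki*+Dp, 101 to 180 in Myc+E2f/Dp and 353 to 392 in Yki-WT. The log2 differences in the mean were -1.01, -1.02 and -1.18. With TPM as deposited they were -0.59, -0.60 and -0.76 and under the fold threshold, and with the 9 libraries as 1 group CG9029 and Fkbp14 had adjusted p = 0.11 and 0.0848. CG9029 also missed the fold threshold without control replicate 1 (-0.99), control replicate 3 (-0.98), or replicate 3 of Yki*+Dp (-0.99), Yki-WT (-0.99) or Myc+E2f/Dp (-0.97), and CG44388 without control replicate 1 (-0.92), control replicate 3 (-0.94) or Yki-WT replicate 2 (-0.99). In bulk RNA, fewer cells of a type and less RNA per cell cannot be told apart.

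The 5 shared genes with the narrowest range between genotypes were stai, IntS12, CG33469, CG11257 and CG13321, whose genotype differences lay within 0.17 to 0.25 of one another. stai, which encodes the microtubule regulator stathmin, was at 0.677, 0.855 and 0.805 scaled TPM in control and 2.19 to 6.95 in the oncogene libraries, with log2 differences of 1.59, 1.42 and 1.51. IntS12, a subunit of the Integrator complex, had the smallest spread, with 2.85, 2.78 and 2.98 in control and 5.89 to 7.83 in the oncogene libraries (log2 difference in the mean 1.03, SE 0.05, adjusted p = 2.58e-07). Its difference between Myc+E2f/Dp and Yki-WT, 0.20, had adjusted p = 0.0155. It was under the fold threshold with 75th percentile scaling (0.98) and without the libraries labelled Myc+E2f/Dp (0.97). CG11257 was the 1 fall of the 5, from 7.75, 6.13 and 4.71 to between 2.04 and 2.97. Being near the fold threshold, CG11257 was not called with TPM as deposited (-0.68) or without control replicate 1 (-0.89), and CG33469 was not called without control replicate 3 (0.92), Yki*+Dp replicate 2 (0.98) or Myc+E2f/Dp replicate 3 (0.96).

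Lists of pathway and family genes were counted next. Of 428 members tested, transgenes included, 52 were called higher in the mean (12.1%, against 3.44% of all genes tested) and 6 lower (1.4%, against 0.984%), and with TPM as deposited 105 and 3. Of the called members, 35 were shared, yki left out. Fitted with the 9 libraries as 1 group, grk, ImpL2, spz, PGRP-SA, PGRP-LB, DptB, Drs, Tig, Mcm5, RnrL, Hsp23, Hsp70Bb, GstD5, GstE3, GstE9, Cyp6a20, Cyp6d2, Spn43Ab, Spn55B, Spn75F and Sfp79B were not called, with adjusted p from 0.0518 (PGRP-SA) to 0.411 (Mcm5). Without Yki*+Dp, ImpL2, PGRP-LB, stck, Fas3, Lac, crim, GstE3, Cyp6a20, Spn43Ab and Spn55B were under the fold threshold, from 0.67 to 0.97. Without the libraries labelled Myc+E2f/Dp the same held for grk, spz, RnrL and Cyp6d2, from 0.52 to 0.65. DptB was then not called either (1.82, limma adjusted p = 0.0528). Mcm5 was at 0.222 scaled TPM at most in the remaining libraries, under the filter, and so was not tested there. The lists with the highest medians in the mean were mitosis (0.84), septate junctions (0.83), DNA replication (0.74), antimicrobial peptides (0.72), JNK and AP-1 (0.63) and glutathione S-transferases (0.60), beside 0.04 over all genes tested. The lowest were the Acp and Sfp genes (-0.58), serpins (-0.51) and ER chaperones (-0.45). The Acp and Sfp median was -0.63 (Yki*+Dp), -1.05 (Myc+E2f/Dp) and 0.04 (Yki-WT). The serpin median was 0.32 with Yki-WT, -0.40 with Yki*+Dp and -0.84 with Myc+E2f/Dp. The medians of mitosis and DNA replication were 2.35 and 2.30 in Myc+E2f/Dp and between 0.01 and 0.15 in the Yki genotypes. In these lists 10 of 11 and 11 of 21 tested members, and 5 of 8 tested antimicrobial peptide genes, were under 1 TPM in every control. The same held for 5 of 25 glutathione S-transferase genes and 2 of 20 JNK and AP-1 genes. Such members passed the filter only through oncogene libraries, which raises these medians. Septate junction genes stood above control in each genotype, at 1.26 in Yki*+Dp, 0.70 in Myc+E2f/Dp and 0.40 in Yki-WT.

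**Figure D4:**
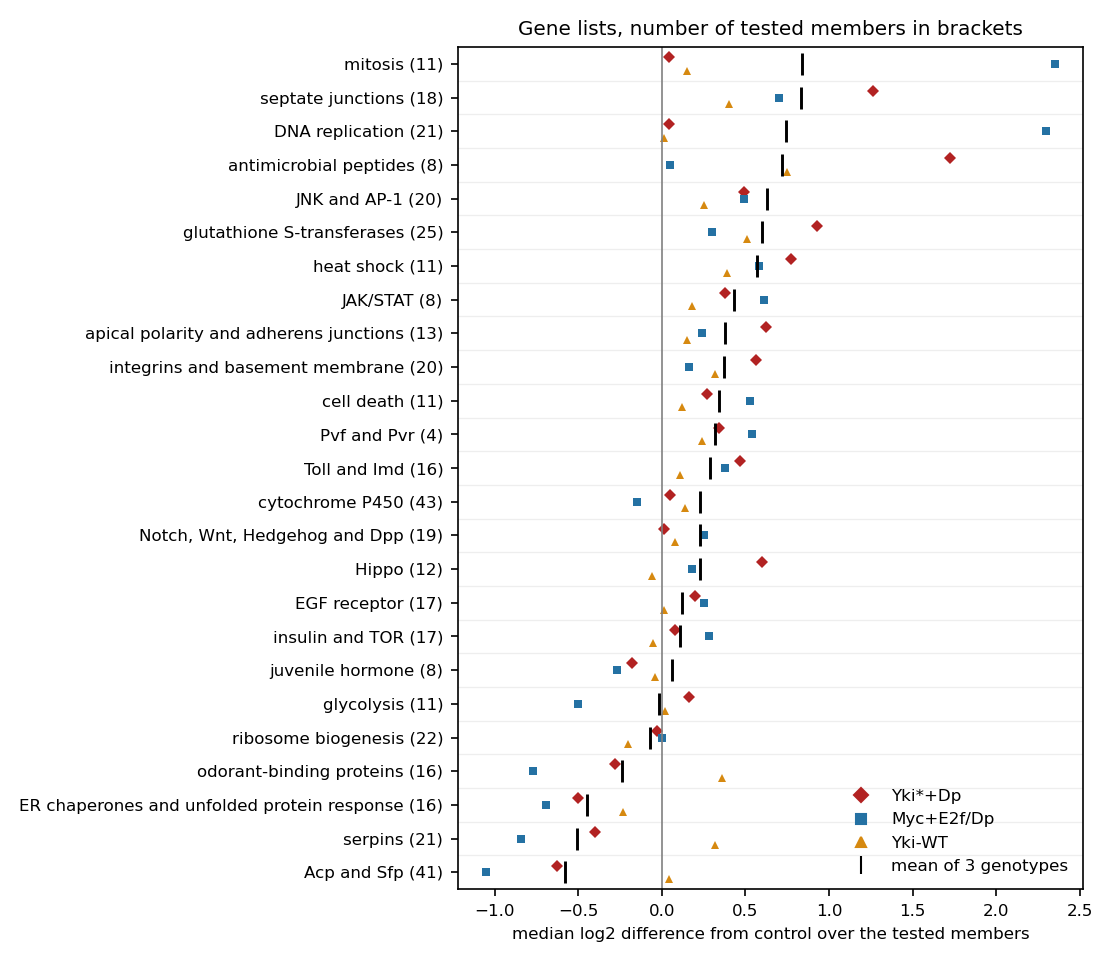
Median log2 difference from control over the tested members of each list (number in brackets), for each oncogene genotype (coloured points) and for the mean of the 3 (black bar). Septate junction genes lie above 0 in each genotype (0.40 to 1.26), DNA replication and mitosis genes in Myc+E2f/Dp only by more than 0.15, and ER chaperones below 0 in each (-0.23 to -0.69).

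Of 4 Pvf and Pvr genes and 19 Notch, Wnt, Hedgehog and Dpp genes tested, none was called, and 1 and 2 of them lay above control in all 9 libraries. Of 8 JAK/STAT genes tested, 4 had all 9 libraries above control and 1 of these, upd3, was called. Over all genes tested, 8.37% lay above control in all 9 libraries and 3.44% were called higher. upd3 encodes an Unpaired cytokine and was at 0.56, 0.176 and 0.0866 scaled TPM in control, 2.65, 3.2 and 2.9 in Yki*+Dp, 1.87, 1.55 and 5.09 in Myc+E2f/Dp, and 1.05, 1.05 and 1.02 in Yki-WT. Yki-WT was lowest of the oncogene genotypes, and the other 2 overlapped. The log2 difference in the mean was 1.28 (SE 0.22, adjusted p = 0.000754). The 0.70 of Yki-WT was not called. The JAK/STAT list members Socs36E, Socs44A and Ptp61F also stood above control in all 9 libraries, at 0.51, 0.54 and 0.91, under the fold threshold. Of 17 EGF receptor genes, the ligands grk, spi and Krn and the phosphatase gene Mkp3 stood above control in all 9 libraries, and grk was called, 1 gene where 3.44% of all genes tested were. grk was at 0.533, 0.671 and 0.652 in control, 2, 2.39 and 1.77 in Yki*+Dp, 4.35, 5.21 and 7.39 in Myc+E2f/Dp, and 1.08, 1.21 and 1.42 in Yki-WT, with a log2 difference of 1.13 (SE 0.12, adjusted p = 3.62e-05) that came mostly from Myc+E2f/Dp. Its annotated span overlaps that of the shared gene Akap200. spi and Krn were at 0.97 and 0.98. Of 17 insulin and TOR genes tested, 2 were called higher, ImpL2 and Thor, and 1, ImpL2, lay above control in all 9 libraries. The median of that list was 0.11. ImpL2, which encodes a secreted protein that binds insulin-like peptides, was at 0.566, 0.4 and 0.22 in control and 0.943 to 5 in the oncogene libraries (log2 difference 1.18, SE 0.27, adjusted p = 0.00461; 0.99 without Myc+E2f/Dp replicate 3, and then not called).

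Of 20 JNK and AP-1 genes tested, 6 had all 9 libraries above control and none below, against 8.37% and 6.84% of all genes tested. Mmp1, the matrix metalloproteinase that is a known JNK target, was the 1 called of the 6. Its levels were 1.98, 1.89 and 0.865 scaled TPM in control, 10, 8.97 and 9.69 in Yki*+Dp, 8.01, 8.46 and 15.8 in Myc+E2f/Dp, and 4.91, 6.43 and 10.8 in Yki-WT. The genotypes differed by 0.49 at most on the log2 scale, and no pair of them was called. The log2 difference in the mean was 1.96 (SE 0.23, adjusted p = 8.28e-05). The others were the ligand gene egr (0.64), the receptor gene grnd (0.48), the AP-1 genes Jra (0.70) and kay (0.68) and the phosphatase gene puc (0.84), none of which reached the fold threshold in the mean. scaf was called at 1.20 but overlapped the controls, with 3.02 in Yki*+Dp and -0.17 in Myc+E2f/Dp. With scaf, 2 of the 20 genes were called higher, against 3.44% of all genes tested.

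Toll and Imd genes had 8 of 16 tested members above control in all 9 libraries, and 4 of those were called (5 with nec, which overlapped). The shares over all genes tested were 8.37% above control in all 9 libraries and 3.44% called higher. The ligand gene spz was at 0.794, 0.699 and 0.69 scaled TPM in control, 6.56, 8.26 and 9.84 in Myc+E2f/Dp, 1.52 to 2.34 in Yki*+Dp and 0.815 to 2.23 in Yki-WT. dl, an NF-kappaB factor, was at 1.69, 1.59 and 1.9 in control, 7.55, 8.45 and 7.52 in Yki*+Dp, 6.29, 7.7 and 9.69 in Myc+E2f/Dp, and 2.74, 3.64 and 2.72 in Yki-WT. For dl, Yki-WT lay between control and the other oncogene genotypes without overlap. Log2 differences in the mean were 1.16 for spz, 1.31 for dl, 1.50 for PGRP-SA, a circulating receptor for peptidoglycan, and 1.53 for PGRP-LB, an amidase that degrades it (SE 0.11 to 0.21, adjusted p = 0.000244, 7.8e-06, 0.000105 and 0.000221). PGRP-SA and PGRP-LB were highest in Yki*+Dp, at 8.36 to 11.4 and 22.8 to 30.9, against 0.849 to 1.31 and 3.08 to 3.86 in control.

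Among antimicrobial peptides, 8 of 19 measured genes were tested and 3 were called, of which Drs and DptB lay above control in all 9 libraries. The shares over all genes tested were 3.44% called higher and 8.37% above control in all 9 libraries. Drs, the antifungal drosomycin, was at 0.582, 0.803 and 0.426 scaled TPM in control, 2.49, 4.65 and 18.1 in Yki*+Dp, 1.04, 3.45 and 3.73 in Myc+E2f/Dp, and 8.14, 12 and 10.1 in Yki-WT (log2 difference 2.03, SE 0.42, adjusted p = 0.00249). DptB varied most, with 0.148, 0.0342 and 0.0328 in control, 34.6, 2.4 and 3.35 in Yki*+Dp, 0.198, 3.62 and 1.83 in Myc+E2f/Dp, and 1.53, 0.424 and 1.29 in Yki-WT. Its call was narrow, with a log2 difference of 1.69 and adjusted p = 0.0423. It was lost without any 1 control library (adjusted p = 0.0978, 0.104 and 0.104), without Yki-WT replicate 1 or 3 (0.0634 and 0.0618), and without Myc+E2f/Dp replicate 2 or 3 (0.0696 and 0.0638). With the replicate number as a block, its adjusted p was 0.0586. Hemocyte markers summed to 24.1 to 30.4 scaled TPM in control, 37.9 to 49.7 in Yki*+Dp, 21.5 to 30.9 in Myc+E2f/Dp and 39.9 to 41.8 in Yki-WT, and fat body markers to 2.3 at most. The part of other cell types in these genes was not tested.

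Of 18 septate junction genes, all tested, 10 lay above control in all 9 libraries and 3 of these were called. The shares over all genes tested were 8.37% above control in all 9 libraries and 3.44% called higher. Septate junctions seal the side walls of insect epithelia. Lac was at 24, 27.5 and 25.1 scaled TPM in control, 76.2, 103 and 83.8 in Yki*+Dp, 44.7, 50.1 and 61.3 in Myc+E2f/Dp, and 40, 41.8 and 47.6 in Yki-WT. crim was at 11.9, 13.9 and 13.6 in control and 20.8 to 55.5 in the oncogene libraries, and Fas3 at 16.7, 19.8 and 17.4 and 23.6 to 54.5. The log2 differences in the mean were 1.15, 1.18 and 1.05 (SE 0.11 to 0.14, adjusted p = 1.84e-05, 2.76e-05 and 0.000163). Fas3 fell just under the fold threshold without control replicate 1 (1.0 after rounding) or Yki-WT replicate 3 (0.99). The other 7, Nrx-IV, Cont, kune, nrv2, sinu, crok and Tsf2, ran from 0.79 to 0.99. Of 13 apical polarity and adherens junction genes, 6 lay above control in all 9 libraries and 1, ed, below, with none called. Below control in all 9 libraries were 6.84% of all genes tested.

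Integrin and basement membrane genes had 6 of 20 tested members above control in all 9 libraries, 3 of them called. The shares over all genes tested were 8.37% above control in all 9 libraries and 3.44% called higher. Itgbn, an integrin beta subunit, was at 14.3, 18.6 and 16.2 scaled TPM in control, 71.2, 90 and 70.3 in Yki*+Dp, 34.2, 44 and 59.2 in Myc+E2f/Dp, and 31.3, 35.5 and 38 in Yki-WT. It was called in each genotype alone, and its log2 difference in the mean was 1.54 (SE 0.14, adjusted p = 1.88e-05). stck, the PINCH adaptor of integrin adhesions, was at 22.8, 20 and 20.7 in control and 35.7 to 84.8 in the oncogene libraries (1.15, SE 0.09, adjusted p = 7.17e-06). Tig, which encodes the integrin ligand Tiggrin, was called at 1.70 (SE 0.33, adjusted p = 0.00165), with 3.20 in Yki*+Dp, where its level was 6.16 to 15.2 against 0.0918 to 0.131 in control. The summed level of this list, most of it from mfas at 1540 to 1985 TPM in control, ran from 2240 to 2445 in control and from 1494 to 2641 in the oncogene libraries.

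**Figure D5:**
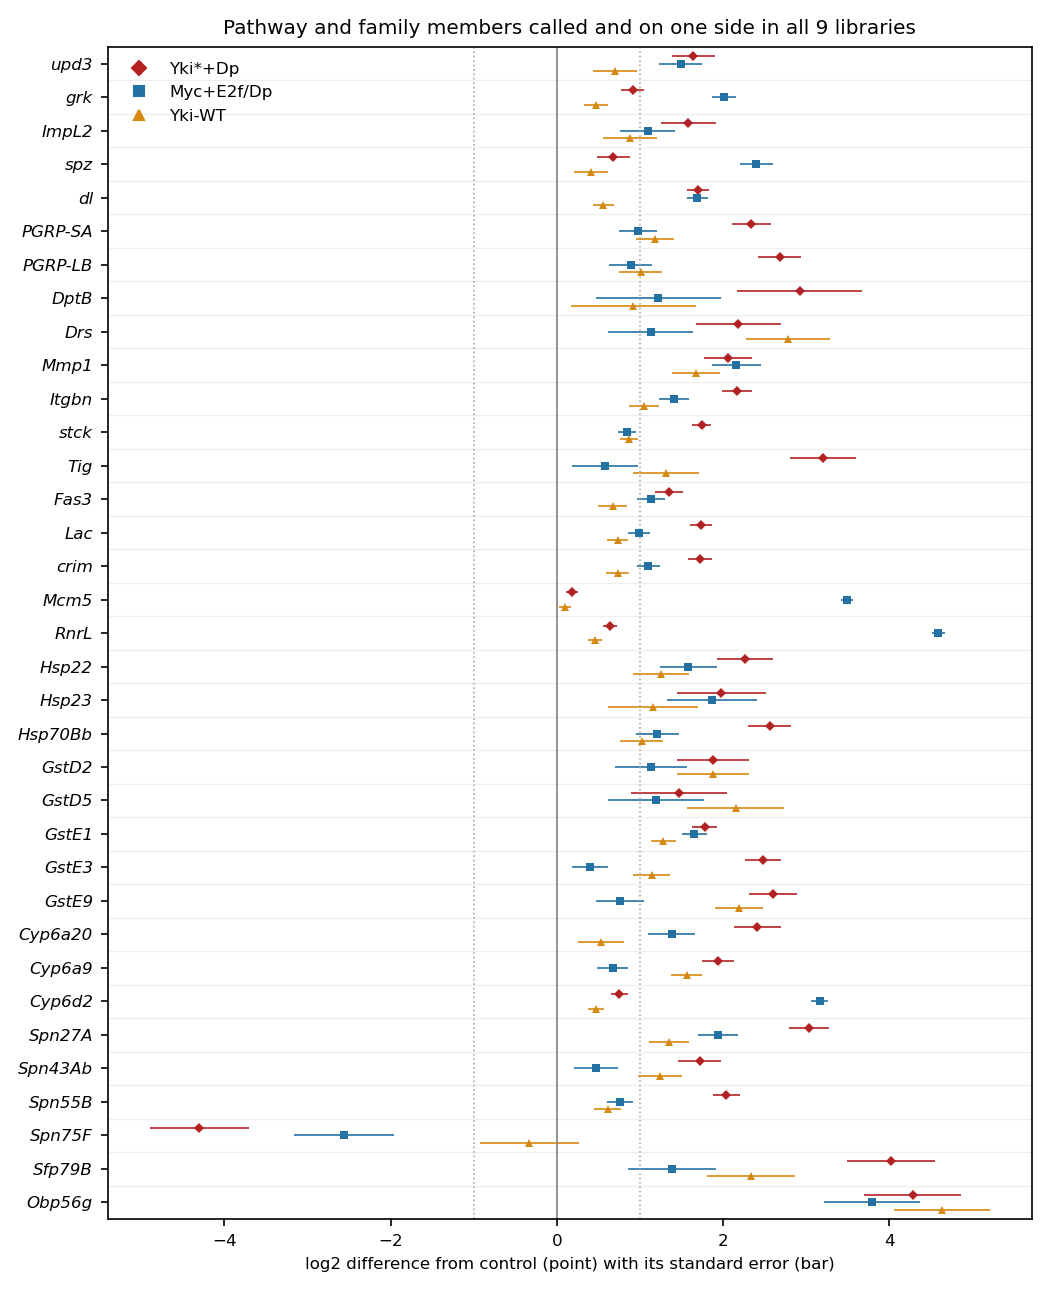
Log2 difference from control (point) with its standard error (bar) in each oncogene genotype, for the 35 pathway and family members that were called in the mean and lay on one side in all 9 libraries. Mmp1, GstE1 and Obp56g show no called difference between genotypes, Mcm5 and RnrL are far from 0 in Myc+E2f/Dp (3.49 and 4.59), and Spn75F is the 1 member below 0.

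Of 25 glutathione S-transferase genes tested, 9 lay above control in all 9 libraries, none below, and 5 were called higher. Of the 25, 5 were under 1 TPM in every control, GstD2 and GstD5 among them. Those entered the test only through oncogene libraries, which raises these counts. Over all genes tested, 8.37% lay above control in all 9 libraries and 3.44% were called higher. GstE1 differed least between genotypes of the 5, at 9.26, 8.74 and 6.11 scaled TPM in control, 32.4, 28.5 and 28.2 in Yki*+Dp, 26.3, 24.2 and 31 in Myc+E2f/Dp, and 18.2, 24 and 20.3 in Yki-WT (log2 difference 1.57, SE 0.12, adjusted p = 5.88e-06). GstE9, GstE3, GstD2 and GstD5 were called at 1.85, 1.34, 1.63 and 1.60. GstE3 was at 2.48 in Yki*+Dp and 0.40 in Myc+E2f/Dp, and GstD5 was not called without control replicate 2 (1.50, adjusted p = 0.0644). The Gst genes lie in clusters of related copies, so reads may be divided among them. Of 11 heat shock genes tested, Hsp22, Hsp23 and Hsp70Bb were called, at 1.70, 1.67 and 1.60. Hsp70Bb was at 49.7, 76.4 and 45.8 in control, 301, 351 and 353 in Yki*+Dp, 150, 128 and 116 in Myc+E2f/Dp, and 95.4, 86.6 and 180 in Yki-WT. Yki*+Dp stood above the other genotypes, which overlapped. Hsp70Bb belongs to a family of near-identical copies, so its level is uncertain. Hsp23 was not called without control replicate 2 (1.38, adjusted p = 0.0548). Among 43 cytochrome P450 genes tested, 5 were called higher and 2 (Cyp4e1 and Cyp4e2, at -2.37 and -1.04, both overlapping the controls) lower. In all 9 libraries, 5 of the 43 lay above control and 2 below, and the 2 below were not called. Over all genes tested, 0.984% were called lower and 6.84% lay below control in all 9 libraries. Of the genes called higher, Cyp6a9, Cyp6a20 and Cyp6d2 lay above control in all 9 libraries. Cyp6d2 was mostly a difference of Myc+E2f/Dp, at 34.7 to 41.9 against 3.19 to 3.75 in control and 4.82 to 7.53 in the Yki genotypes.

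Of 21 DNA replication genes tested, 6 were called in the mean, and Mcm5 and RnrL were also above control in all 9 libraries. The shares over all genes tested were 3.44% called higher and 8.37% above control in all 9 libraries. RnrL, the large subunit of ribonucleotide reductase, was at 0.591, 0.649 and 0.645 scaled TPM in control, 1.39, 1.54 and 1.68 in Yki*+Dp, 1.07, 1.14 and 1.56 in Yki-WT, and 38.9, 37.4 and 38.3 in Myc+E2f/Dp. Its log2 difference in the mean was 1.90 and came mostly from Myc+E2f/Dp. Mcm5, a subunit of the replicative helicase, was at 0.0405, 0.0431 and 0.0847 in control, 0.172 to 0.222 in Yki*+Dp, 0.0862 to 0.203 in Yki-WT and 10.4 to 11.4 in Myc+E2f/Dp. The differences of Mcm5 in the Yki genotypes, 0.18 and 0.10, were not called (adjusted p = 0.0723 and 0.461).

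Of 16 ER chaperone and unfolded protein response genes, none was called lower. All 9 libraries lay below control at 8 of them, against 6.84% of all genes tested. They were Atf6, Hsc70-3, Gp93, Pdi, Calr, Cnx99A, CaBP1 and Sec61α, between -0.42 and -0.72 in the mean, while crc lay above control at 0.42. The summed level of the list was 9282 to 11093 scaled TPM in control. Yki-WT followed at 8486 to 9115, then Yki*+Dp at 6284 to 7910, and Myc+E2f/Dp was lowest at 4586 to 6738. Of 41 Acp and Sfp genes tested, 5 lay below control in all 9 libraries (Acp32CD, Sfp24F, Sfp33A1, Sfp33A2 and Sfp38D, from -0.61 to -0.99) and 1, Sfp79B, above, against 6.84% and 8.37% of all genes tested. Called lower were 2 others, Acp36DE (-1.02) and Acp54A1 (-3.37), which overlapped the controls and were at -0.12 and 0.10 in Yki-WT. Markers of secondary cells summed to 10485 to 11632 in control, 6524 to 8317 in Yki*+Dp, 2944 to 3648 in Myc+E2f/Dp and 7261 to 9240 in Yki-WT, and 4 of the 5 lay below control in all 9 libraries, with none called and a median of -0.89. Of the 8 main cell markers, none was one-sided and 1 was called lower. Their sums were 84825 to 108174 in control and overlapped it in Yki-WT, at 86047 to 97265. They lay below control in Yki*+Dp, at 56169 to 65355, and in Myc+E2f/Dp, at 43403 to 56479. The medians were -0.63 in Yki*+Dp, -0.72 in Myc+E2f/Dp and -0.01 in Yki-WT. Of 21 serpins tested, 3 were called higher and 2 lower, against 3.44% and 0.984% of all genes tested. They were Spn27A, an inhibitor of proteases of the Toll and melanization cascades, Spn43Ab and Spn55B called higher (2.11, 1.14 and 1.14), and Spn75F (-2.40) and Spn77Bc (-1.27, overlapping the controls) called lower. Spn27A was at 1.5, 1.53 and 1.43 in control, 16.1, 28 and 15.9 in Yki*+Dp, 5.66, 9.09 and 11.9 in Myc+E2f/Dp, and 4.44, 5.81 and 5.95 in Yki-WT (SE 0.20, adjusted p = 1.91e-05).

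The marker gene of eye color, w, which transgene constructs of the fly commonly carry as a selectable marker, was at 9.83, 12.2 and 9.83 scaled TPM in control. It was at 18.8, 19.6 and 19.4 in Yki*+Dp, 15.9, 17.2 and 22.3 in Myc+E2f/Dp, and 13.1, 13.8 and 18.8 in Yki-WT, above control in all 9 libraries at a log2 difference of 0.67 (SE 0.12, adjusted p = 0.000941), under the fold threshold. With TPM as deposited the difference was 1.06. The other marker of the background, y, was listed at 0 in control and at 0.0396 at most in the oncogene libraries, and was not tested.

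Positions were compared as a description. The X chromosome held 15.8% of the genes tested that could be placed, 27 of 193 placed shared higher genes and 0 of 47 placed shared lower genes, while 3L held 15 and 2R 13 of the latter. Among the 556 tested genes with all 9 libraries below control, 71 were on X, which is 12.8% of those placed. Of 8096 pairs of neighbouring tested genes, 19 were made of 2 shared higher genes and 1, CG3288 with CG13255, of 2 shared lower genes. The 19 pairs included Arc1 and Arc2 (1.61 and 1.55), p38c and p38a (1.09 and 1.11), Cyp6a9 and Cyp6a20 (1.39 and 1.44), GstE1 and GstE3 (1.57 and 1.34), CG2065 and CG2064 (1.57 and 1.66), and CG10337 and Tep4 (1.57 and 1.96), examples chosen after their values were seen. Several of these are related copies, between which reads may be divided. The annotated spans of lectin-28C and TwdlE, and of Akap200 and grk, overlap. Whether their exons overlap was not checked, and whether the counting used strand is not given in the sources used here. How far reads could be exchanged between them is therefore unknown.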

How the data were processed

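Per the labels and the study's methods, RNA was taken from pooled accessory glands, and the authors trimmed reads with cutadapt 1.18 and estimated transcript abundance with kallisto; sleuth and BDGP6 are also named in the submitters' processing notes. The deposited values are TPM, per transcript and summed per gene. They keep no depth, so the precision behind a low value is unknown. The labels place the heat shock on the day of eclosion, and the study's text gives a later time for its work in general.

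Gene TPM (14323 genes) were scaled by the median of ratios over 6633 genes, and tested as log2(scaled TPM + 1) with limma 3.58.1 in R 4.3.3 (lmFit with 4 groups, contrasts, eBayes with an intensity trend) on the 8128 genes with at least 1 TPM in 3 libraries. The mean of the 3 oncogene genotypes minus control was the main contrast. Calls needed a two-sided p below 0.05 after Benjamini-Hochberg adjustment over all genes tested and a log2 difference of 1 or more. On simulated data of 8128 genes for this contrast, 99% of 200 changed genes and 1 unchanged gene were called. Each changed gene had the same shift, above the fold threshold, in every oncogene library. The simulation therefore does not show how often genes near the threshold, or uneven across genotypes, are called. Named genes were the 12 largest shared rises and falls, the transgenes with w and y, the shared members of the pathway lists, the 5 shared genes with the narrowest and the 5 with the widest range between genotypes, and those nearest the edge of the rule. List members that were one-sided but not called, and genes said to be so, were chosen after their values were seen. The rule, the members and all lists were chosen with earlier results of these data known. Of 466 listed names, 453 were found.

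Positions come from the BDGP6.54 annotation through transcript identifiers (14293 genes placed). Alternatives covered scaling, pseudocount, filter, model, threshold, a replicate block, and each library or oncogene genotype left out. Promoter sequences were not analysed here. Figures were drawn with matplotlib 3.10.9 in Python 3.11.15.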

Additional observations from a re-analysis of the deposited data

Results flagged for a closer look

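The differences from control of 50 named genes were not the same in the 3 oncogene genotypes, by a limma contrast between genotypes that uses no control library (log2 difference of 1 or more, adjusted p below 0.05). For each, the widest such contrast is given, with no explanation. Many of these genes were named by rules that used the same oncogene libraries.

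In Yki*+Dp minus Myc+E2f/Dp the differences were lectin-28C 5.44, CG13117 3.12, CG4238 2.86, Sfp79B 2.64, Tig 2.62, CG34301 2.60, yki 2.29, GstE3 2.08, Idgf4 1.87, GstE9 1.84, PGRP-LB 1.79, CG6891 1.48, PGRP-SA 1.36, Cyp6a9 1.28, Spn43Ab 1.25 and CG9380 1.02 on the higher side. They were CG3906 -5.80, E2f1 -5.05 and l(2)34Fc -2.02 on the lower side.

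In Yki*+Dp minus Yki-WT they were Dp 6.25, CG1607 3.47, Myo31DF 1.93, Cyp6a20 1.88, Spn27A 1.68, Hsp70Bb 1.54, Spn55B 1.43, dl 1.14, Itgbn 1.12, Hsp22 1.01 and Lac 1.0 on the higher side, and Spn75F -3.97 and CG43403 -3.79 on the lower side. The adjusted p of Hsp22, 0.0489, was the one nearest the threshold of all 50.

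In Myc+E2f/Dp minus Yki-WT the higher side held RnrL 4.13, Mcm5 3.40, Claspin 2.89, Cyp6d2 2.69, Myc 2.48, spz 1.99, grk 1.55 and Tep4 1.36. The lower side held CG13539 -2.93, CG13857 -2.53, CR43087 -2.51, CG2812 -2.13, CG34166 -1.81, CG10026 -1.79, Drs -1.65, Fkbp14 -1.41, CG9029 -1.32 and CG32259 -1.06.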

How the results depend on the processing

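With TPM as deposited, 557 genes were called higher and 30 lower, 1132 and 92 were one-sided, 398 and 15 were shared, 2067 differed between Myc+E2f/Dp and Yki-WT, and 105 and 3 list members were called. A pseudocount of 0.1 gave 536 and 134 calls, the 9 libraries as 1 group 95 and 22, and limma's treat against a log2 difference of 1 gave 34 and 12. Without the Yki-WT genotype, 434 and 237 genes were called, 1338 and 1399 were one-sided and 344 and 222 shared. Without the Myc+E2f/Dp genotype, 30 genes were called lower, 1057 were one-sided higher and 23 shared lower, and the mean differences of E2f1 (-0.20) and Myc (-0.21) changed sign. Fewer libraries have to lie on one side when a group is left out. At fixed scaling and over a fixed set of genes, that can only raise the one-sided counts. The scaling factors and the filter were, however, computed again for each set of libraries, so the counts could also fall. The cause of the other changes was not tested.

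Leaving out 1 library at a time gave 236 to 295 genes called higher and 68 to 95 lower, 672 to 889 and 548 to 835 one-sided, and 184 to 236 and 42 to 60 shared. The 835 came without control replicate 3. Between genotypes the counts were 687 to 880 (Yki*+Dp and Myc+E2f/Dp), 263 to 349 (Yki*+Dp and Yki-WT) and 755 to 1019 (Myc+E2f/Dp and Yki-WT). Of the 242 shared genes, 214 to 240 stayed shared without any 1 library, 224 with 75th percentile scaling, 205 with TPM as deposited and 36 under treat.

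With the replicate number as a block, 280 and 81 genes were called, and 858, 333 and 1010 between genotypes. Correlations of deviations between same-numbered libraries ran from -0.313 to 0.515, and 9 of 18 were over 0.1. Between differently numbered libraries of different genotypes they ran from -0.385 to 0.368. Whether the numbers pair the libraries cannot be told from these values. TPM keep no depth, so whether low genes such as Claspin, Mcm5 or DptB differ beyond counting error in control cannot be told.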
